A study of Mus musculus with 2 samples.

Results

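Cytosolic ribosomal protein genes encode the protein part of the ribosome that works in the cytoplasm. Their promoters were examined in an open chromatin map of erythroblasts of the mouse, which are the red cell precursors that still have a nucleus. Members were all protein-coding genes of the GENCODE M21 annotation of the mouse genome (build mm10) whose symbol is Rpl, Rplp or Rps followed by a digit, without the S6 kinase genes (Rps6k) and Rps19bp1. This rule, which uses no measured value, gave 90 of 21938 protein-coding genes, 57 of the large subunit (Rpl and Rplp) and 33 of the small subunit (Rps). A member was called open when each replicate's own thresholded peak list had an interval no farther than 1 kb from any annotated transcription start of the gene. By that rule 80 of the 90 members were open and 10 were not.

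The map came from ATAC-seq, in which a transposase cuts and tags accessible DNA. The study held 2 replicates of 1 group, each a library of 50000 primary erythroblasts from adult male C57BL/6J mice of 5 to 6 weeks, with no treatment and no other genotype named in the labels. Both replicates carry the same donor identifier but separate biosamples, and the labels do not say whether they are separate animals, so the spread between them may be technical. Only the label of replicate 2 lists instruments (Illumina HiSeq 2000 and NextSeq 500), and instrument and replicate cannot be told apart. The thresholded lists held 17777 peaks in replicate 1 and 18837 in replicate 2, and with no read counts in them the depth of each library is unknown. The promoters of 9 of 9 erythroblast markers (such as Gata1, Klf1 and Epor) were open, and those of 0 of 9 markers of B cells, T cells, granulocytes, macrophages, platelets and progenitors were.

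A ribosome is built from ribosomal RNA and a fixed set of proteins in a large and a small subunit, and cells make each protein in step with the others. Developing red cells make very large amounts of globin, and in people the loss of a copy of certain ribosomal protein genes causes Diamond-Blackfan anemia, in which red cell precursors fail. Many of these genes are known to start transcription at a C within a run of pyrimidines (C or T), a feature also carried by the start of the transcript as the terminal oligopyrimidine tract through which translation is regulated.

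Initiator tracts are shown first because 34 of the 80 open members have such a tract at an annotated start, a larger share than among other open genes. Each line gives 40 bases before an annotated start and 20 bases from it, 5′ to 3′ on the strand of the gene. The sequences are from GRCm38.p6, the assembly of mm10. Capitals mark the run of pyrimidines that begins with the C at the start.
Rpl30: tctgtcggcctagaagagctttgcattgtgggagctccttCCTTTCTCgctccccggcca
Rpl34: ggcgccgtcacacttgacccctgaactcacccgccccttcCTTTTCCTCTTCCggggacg
Rpl5: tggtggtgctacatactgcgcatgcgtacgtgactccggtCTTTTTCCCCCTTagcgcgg
Rpl35a: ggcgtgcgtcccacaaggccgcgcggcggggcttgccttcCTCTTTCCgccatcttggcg
Rps13: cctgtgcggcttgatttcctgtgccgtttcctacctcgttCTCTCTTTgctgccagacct
Rps27: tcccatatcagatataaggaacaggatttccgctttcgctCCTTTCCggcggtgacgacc
Rps9: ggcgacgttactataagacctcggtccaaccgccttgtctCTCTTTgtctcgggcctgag
Rps10: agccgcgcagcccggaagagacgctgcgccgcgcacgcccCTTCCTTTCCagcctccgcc

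These stretches lie at chr15:34443203-34443262 on the minus strand (Rpl30), chr3:130730328-130730387 on the minus strand (Rpl34), chr5:107900532-107900591 on the plus strand (Rpl5) and chr16:33056442-33056501 on the plus strand (Rpl35a). Those of the small subunit lie at chr7:116334116-116334175 on the minus strand (Rps13), chr3:90213629-90213688 on the minus strand (Rps27), chr7:3703998-3704057 on the plus strand (Rps9) and chr17:27635225-27635284 on the minus strand (Rps10). All 8 starts lie inside the promoter peak of the gene in both replicates.

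A palindrome assigned here to the zinc finger protein ZBTB33 (Kaiso), whose binding was not measured, was rare at open promoters in general. It lay at the summits of a few ribosomal protein genes. Each line gives the palindrome in capitals with 20 bases to each side, on the strand of the gene.
Rps6: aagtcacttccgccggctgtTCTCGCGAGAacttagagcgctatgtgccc
Rps28: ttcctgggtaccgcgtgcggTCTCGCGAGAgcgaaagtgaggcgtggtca
Rpl12: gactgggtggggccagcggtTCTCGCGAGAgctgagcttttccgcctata
Rpl10a: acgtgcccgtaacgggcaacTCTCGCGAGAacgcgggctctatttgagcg
Rpl26: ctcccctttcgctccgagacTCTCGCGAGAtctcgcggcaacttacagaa

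They lie at chr4:86857389-86857438 on the minus strand (Rps6), chr17:33824534-33824583 on the minus strand (Rps28), chr2:32961638-32961687 on the plus strand (Rpl12), chr17:28328514-28328563 on the plus strand (Rpl10a) and chr11:68901520-68901569 on the plus strand (Rpl26). The last set shows the core letters bound by ETS family factors such as GABPA, CCGGAAG, in capitals at the 2 members of each subunit with this motif in both summit windows that ranked highest by enrichment. In Rpl30 and Rps7 it reads as its reverse complement CTTCCGG on the strand of the gene.
Rpl30: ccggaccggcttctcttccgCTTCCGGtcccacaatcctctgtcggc
Rpl31: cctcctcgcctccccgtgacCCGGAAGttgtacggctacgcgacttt
Rps6: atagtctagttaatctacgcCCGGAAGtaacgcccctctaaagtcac
Rps7: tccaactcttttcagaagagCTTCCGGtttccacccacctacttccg

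These lie at chr15:34443254-34443300 on the minus strand (Rpl30), chr1:39367839-39367885 on the plus strand (Rpl31), chr4:86857432-86857478 on the minus strand (Rps6) and chr12:28635941-28635987 on the minus strand (Rps7). A match is a description of the letters, not evidence that a factor was bound.

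Ribosomal protein promoters were open far more often than promoters in general, and the 10 closed members were copies or tissue-restricted relatives. The 80 open members were 88.9% of the 90 (95% Wilson interval 80.7 to 93.9%), against 41.4% of all 21938 protein-coding genes by the same rule. With promoters of 500 bp to each side of a start the count was also 80, against 40.6% of all genes, and in the less strict lists 80, against 46.6%. The same 80 members had a promoter peak in replicate 1 and in replicate 2. By subunit, 49 of 57 large subunit members and 31 of 33 small subunit members were open. The interval covered an annotated start itself in both replicates at all 80. Wilson intervals here cover counting error only.

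The members that make up the ordinary ribosome accounted for 76 of the 90, and 76 of 76 were open, 46 of the large and 30 of the small subunit (95% Wilson interval for the share, 95.2 to 100%). The remaining 14 were 8 paralogs and 6 genes whose symbols mark them as copies (ps, for pseudogene) although the annotation calls them protein-coding. Of the paralogs, Rpl22l1, Rpl7l1, Rpl36al and Rps27l were open. Closed were Rpl10l, a relative of the X-linked Rpl10 known from testis, Rpl39l, a relative of Rpl39 also known from testis, Rpl3l, a relative of Rpl3 known from skeletal and heart muscle, and Rps27rt. All 6 copies were closed, namely Rpl10-ps3, Rpl36-ps4, Rpl36a-ps1, Rpl9-ps1, Rpl9-ps6 and Rps12-ps3. In these lists the openness of a member therefore followed its kind: every core gene was open, and no copy was.

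The closed members also differed in gene structure. Of the 10, 7 had 1 exon and 8 had 1 annotated start, while 0 of the 80 open members had 1 exon. The nearest thresholded interval lay 3025 bp from a start of Rpl3l in replicate 2 and 3103 bp in replicate 1, the closest among the 10. For Rpl10l it lay 774717 bp away in replicate 1 and 774716 bp in replicate 2, the farthest. For Rpl9-ps6 the distances were 3448 and 3463 bp. In the less strict lists of each replicate none of the 10 gained a promoter peak, and the nearest approach was 1396 bp at Rpl9-ps6 in replicate 1. The sources used here do not give how reads that match several copies were treated, so an absent peak at a near-identical copy is uncertain to that extent.

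Further ribosomal genes that the symbol rule leaves out were open as well. Rpsa encodes a small subunit protein, Fau encodes a ribosomal protein made as a fusion with a ubiquitin-like protein, and Rack1 encodes a scaffold on the small subunit. These 3 had a promoter peak in both replicates. Their percentiles by enrichment, defined below for the members, were 89.1 and 94.97 for Rpsa, 74.0 and 79.8 for Rack1 and 32.3 and 24.0 for Fau in replicates 1 and 2. Rpsa and Rack1 thus stood well above Fau in each replicate.

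The strength of each promoter peak was described by 2 values of the authors. Enrichment is a fold over background, taken at the strongest summit, which is the summit with the highest enrichment. Significance is a −log10 p, taken as the highest value of any summit in the interval. Both were ranked only within a replicate's list and are given as a percentile among all peaks of that list, where 100 is the top. Where a gene had several promoter peaks, the one with the highest enrichment was used.

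Ribosomal protein promoters ranked above the middle of the lists and above most other open promoters, but they were not concentrated at the very top. The median percentile by enrichment of the 80 members was 82.0 in replicate 1 and 80.5 in replicate 2 (mean 81.3 ± 1.02, SD, n = 2). The medians of the 9003 other open protein-coding genes were 70.6 and 72.0. By significance the members' medians were 83.7 and 85.4 (mean 84.6 ± 1.26, SD, n = 2), against 73.7 and 75.1 for the others. These medians describe the genes in 2 libraries, and no test was made over the members.

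The shift lay in the middle of the distribution. In each replicate 50 of 80 members (62.5%) were in the top 25% of peaks by enrichment, against 43.6% and 45.3% of the other open genes. In the top 10%, by contrast, stood 20% and 21.3% of members and 18.5% and 19.5% of the others, which is nearly the same share. Below the middle of the list lay 8 members in replicate 1 and 5 in replicate 2, 10% and 6.25%, against 25.6% and 23.3% of the others. In both replicates, 12 members were in the top 10%, 47 in the top 25% and 4 in the lower 50%.

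**Figure D1:**
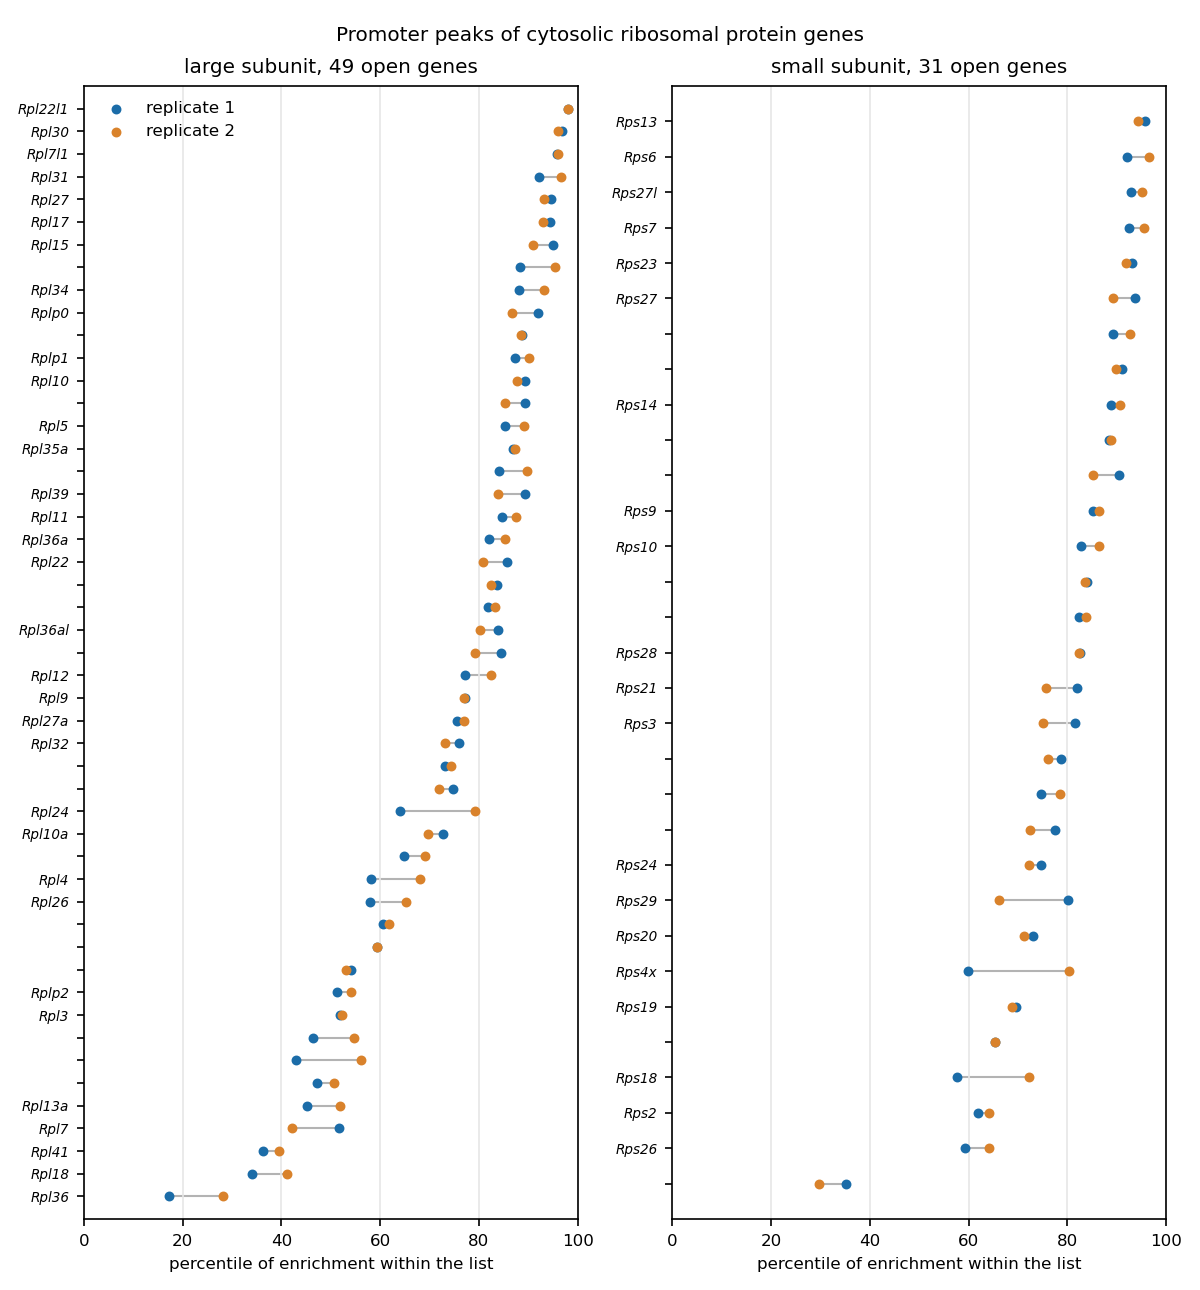
Percentile of enrichment of the strongest promoter peak within the replicate's thresholded list (x axis, 0 to 100, top at the right) for each open member (y axis, ordered by the mean of the replicates, with symbols for genes described in the text), 49 large subunit genes at the left and 31 small subunit genes at the right. Blue points are replicate 1, orange points replicate 2, and grey lines join them. Rpl22l1 stands highest at 98.0 and 98.1, and Rpl36 stands lowest of the large subunit.

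The highest promoter of the large subunit was that of a paralog. Rpl22l1, a relative of Rpl22, had an enrichment of 15.2 in replicate 1 and 15.4 in replicate 2, percentiles 98.0 and 98.1. Rpl30, whose initiator tract and ETS letters are shown above, stood at 96.9 and 96.1. Rpl7l1, a relative of Rpl7, stood at 95.8 and 96.0. Rpl31 stood at 92.2 and 96.6. All 4 were in the top 10% in both replicates, and 2 of them are paralogs rather than core proteins.

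In the small subunit the highest were Rps13, Rps6, Rps27l and Rps7. Rps13 stood at percentiles 95.7 and 94.3 by enrichment. Rps6, which encodes the protein phosphorylated by the S6 kinases, stood at 92.2 and 96.6. Rps27l, a paralog of Rps27, stood at 92.9 and 95.1. Rps7 stood at 92.5 and 95.5. The order of these 4 differed between the replicates, so they were not separated from each other by more than the difference between replicates. The other members in the top 10% in both replicates were Rpl15, Rpl17, Rpl27 and Rps23, which were named after their values were seen.

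The 4 open paralogs as a set had the highest values. Their median percentile by enrichment was 94.4 in replicate 1 and 95.6 in replicate 2, and by significance 95.5 and 97.1. The fourth, Rpl36al, stood lower by enrichment at 83.8 and 80.2. The median of the 76 core members was 81.7 and 79.8, close to that of all 80. With 4 genes the paralog medians are a description only.

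At the other end stood Rpl36, the weakest open member by enrichment. Its enrichment was 5.32 in replicate 1 and 6.12 in replicate 2, percentiles 17.2 and 28.1. Its peak was also the narrowest, 312 and 277 bp with 1 summit in each replicate, and lay over the gene's only annotated start. By significance it stood at 49.7 and 60.9, near the middle of the list. Rpl36 was thus the lowest member by enrichment in both replicates. By significance it was below most members, whose lower quartiles were 72.2 and 76.2, but not the lowest.

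Rpl18 and Rpl41 were also in the lower 50% by enrichment in both replicates. Rpl18 stood at 34.1 and 41.0 and Rpl41, which encodes a very short ribosomal protein, at 36.2 and 39.5. By significance the same peaks were higher, at 72.2 and 78.9 for Rpl18 and 78.1 and 80.03 for Rpl41. A low rank by enrichment therefore did not go with a low rank by significance at these genes. Rps26 and Rps2, low among the small subunit members, stood at 59.4 and 64.1 and at 62.0 and 64.2 by enrichment.

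That divergence was marked at a few promoters. Rpl13a on chromosome 7 stood at 45.1 and 51.8 by enrichment and at 86.2 and 90.4 by significance. Rplp2, a stalk protein, stood at 51.2 and 54.1 by enrichment and 84.1 and 87.0 by significance. Rps19 stood at 69.7 and 68.8 by enrichment and 91.5 and 89.97 by significance. The reverse held for the X-linked Rps4x and for Rps20. Rps20 stood at 73.0 and 71.2 by enrichment but 46.3 and 45.3 by significance, and Rps4x at 59.8 and 80.3 but 26.1 and 45.0. These were the only 2 members in the lower 50% by significance in both replicates.

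**Figure D2:**
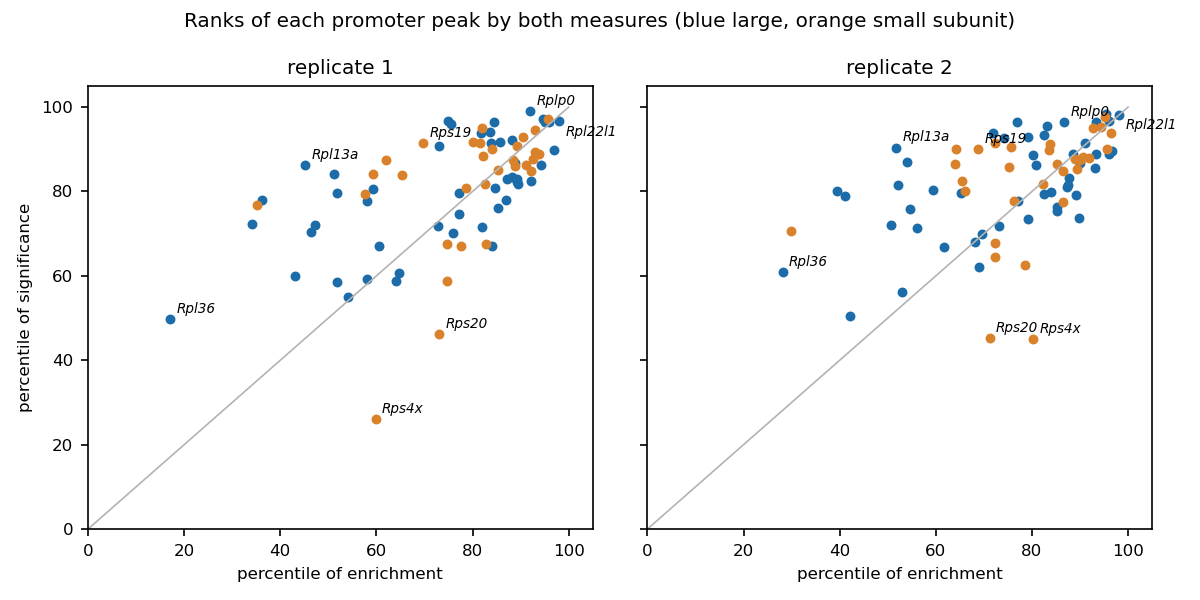
Percentile of significance (y axis) against percentile of enrichment (x axis), both within the replicate's thresholded list, for the 80 open members, replicate 1 at the left and replicate 2 at the right. Each point is a gene, blue for the large and orange for the small subunit, and the grey line marks equal percentiles. Most points are in the upper right, Rpl36 is at the far left, and Rps4x and Rps20 are lowest by significance.

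Rplp0 had the highest significance of the members in replicate 1. It encodes the protein that anchors the stalk of the large subunit and is often used as a reference gene. Its percentile by significance was 99.1 in replicate 1 and 96.4 in replicate 2, and by enrichment 92.1 and 86.7. Its peak was 551 and 566 bp wide with 1 summit, so it was both narrow and high. Rplp0 and Rpl36 were the only open members with 1 summit in both replicates. Rplp1, which encodes a protein of the same stalk, stood at 87.2 and 90.1 by enrichment.

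The 4 open members on chromosome X were Rpl10, Rpl36a, Rpl39 and Rps4x. By enrichment Rpl10 stood at 89.3 and 87.8, Rpl39 at 89.4 and 83.9 and Rpl36a at 82.0 and 85.2. Rps4x had the lowest value of the 4 in each replicate. Chromosome 7 held the most open members, 14 of 80, and members were spread over 19 chromosomes.

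Core genes of the small subunit ranked somewhat above those of the large subunit in each replicate, by amounts small beside the spread among genes. The median percentile by enrichment was 82.1 and 81.3 for the 30 core small subunit genes and 77.2 and 79.3 for the 46 core large subunit genes. By significance it was 86.2 and 86.4 against 80.6 and 80.6. The middle 50% of genes by enrichment in replicate 1 ran from 73.4 to 89.1 for the small and from 58.0 to 88.0 for the large subunit, so the upper ends were alike and the large subunit had the longer lower tail. In replicate 1, 7 core large subunit genes and 1 core small subunit gene lay in the lower 50%, and in replicate 2 there were 4 and 1. Median widths were 921.5 and 903 bp for the large and 932 and 909.5 bp for the small subunit, which is within the difference between replicates. With the open paralogs included, the medians by enrichment were closer in replicate 1, 82.3 for the small and 81.8 for the large subunit. In replicate 2 they were 82.4 and 80.2. By significance they were 86.3 and 86.4 for the small and 81.8 and 81.5 for the large subunit.

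Genes in which human mutations cause Diamond-Blackfan anemia were all open, 16 of 16. Their median percentile by enrichment was 83.8 and 86.9, against 82.0 and 80.5 for all members, and by significance 82.1 and 81.7. Rps19, the gene most often mutated in that disease, stood at 69.7 and 68.8 by enrichment. Rpl5 and Rpl11, which form a particle with 5S ribosomal RNA that can restrain MDM2, stood at 85.4 and 89.1 and at 84.7 and 87.6. Rps14, known from the human 5q- syndrome of red cell failure, stood at 88.8 and 90.7. The lowest of the 16 were Rpl26 in replicate 1 at 58.0 and Rps26 in replicate 2 at 64.1.

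Other genes of protein synthesis served as a scale. Mitochondrial ribosomal protein genes were open at 71 of 78, with a median percentile by enrichment of 79.6 and 78.2 and by significance of 71.0 and 72.3. Genes of ribosome biogenesis and RNA polymerase I were open at 26 of 26, with medians of 83.9 and 83.3 by enrichment and 80.3 and 82.8 by significance. Translation factor genes were open at 21 of 21, with medians of 64.0 and 63.6 by enrichment but 83.4 and 83.5 by significance. Cytosolic ribosomal protein genes were therefore close to the mitochondrial set and the biogenesis set by enrichment and to the biogenesis and translation factor sets by significance. The 9 erythroblast markers had medians of 12.3 and 17.1 by enrichment and 60.2 and 58.2 by significance, below those of the other open genes by both measures and nearer to them by significance.

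**Figure D3:**
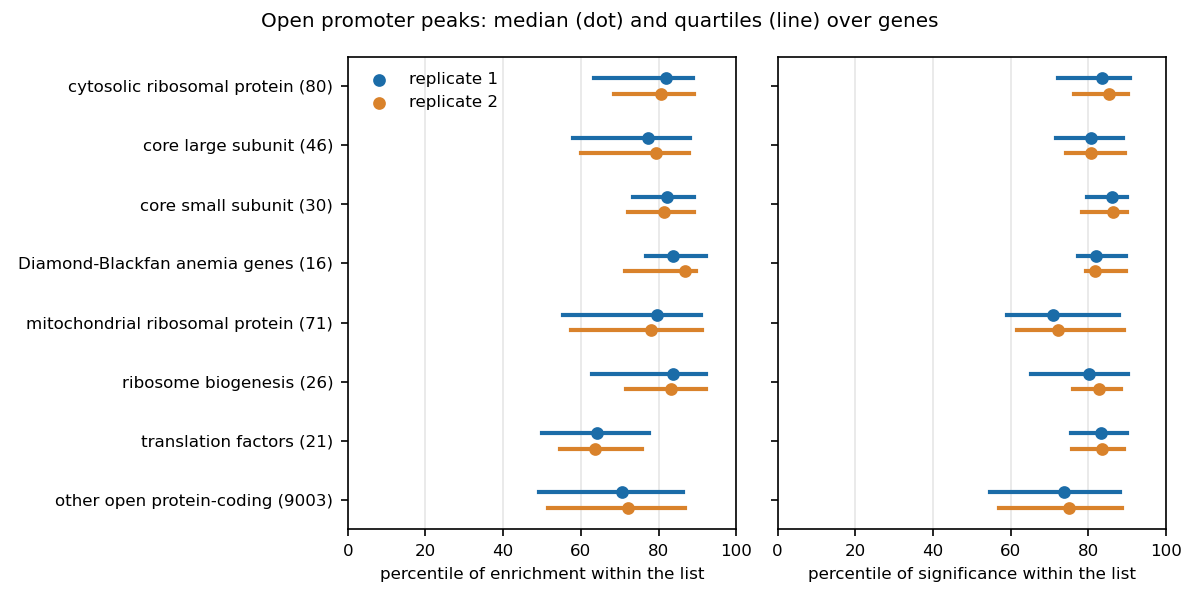
Median (dot) and middle 50% of genes (line) of the percentile by enrichment (left) and by significance (right) for groups of genes with an open promoter, numbers of genes in brackets. Blue is replicate 1 and orange replicate 2. Members have medians of 82.0 and 80.5 by enrichment, and the 9003 other open genes 70.6 and 72.0.

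Small nucleolar RNAs, which guide modification of ribosomal RNA, are often encoded in introns of ribosomal protein genes. Of the 76 core genes 29 held 55 annotated snoRNA genes, with 5 in Rpl4 and 4 in Rpl13a. The median percentile by enrichment was 81.7 and 79.3 for these hosts and 81.9 and 80.3 for the 47 core genes without a snoRNA. By enrichment hosts and other genes differed by less than the replicates did. By significance the hosts had 86.2 and 85.9 and the others 81.7 and 81.8.

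The promoter peaks of ribosomal protein genes were about as wide as other open promoter peaks but had more summits, and their strongest summit lay closer to a start. The median width was 932 bp in replicate 1 and 909.5 bp in replicate 2 (mean 920.75 ± 15.9, SD, n = 2), against 897 and 887 bp for the other open genes. The median number of summits was 3 in each replicate, against 2. It was also 3 in each at mitochondrial ribosomal protein genes, 2.5 and 3 at ribosome biogenesis genes and 3 and 2 at translation factor genes. More than 1 summit was present at 91.3% and 87.5% of members and at 79.6% and 78.1% of the others. At least 4 summits were present at 28.8% of members in each replicate and at 20.7% and 19.2% of the others.

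Summits of a peak were spaced alike in the members and elsewhere. The median distance between neighbouring summits of a member's peak was 272 bp in each replicate. At the other open genes it was 280 and 283 bp.

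The widest peaks were at Rpl34, Rpl4 and Rps3. Rpl34 had a peak of 1451 and 1449 bp with 3 and 5 summits. Rpl4 had 1449 and 1395 bp with 6 summits in each replicate, the most of any member. Rps3 had 1258 and 1356 bp with 3 summits in each, and it also had the most shared distal peaks (defined below) within 50 kb, 6. Rpl35a had 4 and 6 summits over 1071 and 1415 bp, and Rps9 had 5 in each replicate over 1235 and 1211 bp. These wide peaks were not the highest by enrichment: Rpl34 stood at 88.2 and 93.2, Rpl35a at 86.9 and 87.3, Rps9 at 85.3 and 86.4, Rps3 at 81.7 and 75.1 and Rpl4 at 58.1 and 68.1.

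The strongest summit lay within 100 bp of an annotated start at 72 of 80 members in each replicate (90%), against 68.6% and 68.5% of the other open genes. The median distance was 27 and 32 bp for members and 56 and 57 bp for the others. Members had a median of 6 annotated starts and the others 5, and the part of that number in the distance was not tested. The summit lay upstream of its nearest start at 77.5% and 85.0% of members and at 78.4% of the others in each replicate. The median distance was 29 and 33 bp at mitochondrial ribosomal protein genes, 36 and 39.5 bp at ribosome biogenesis genes and 87 and 78 bp at translation factor genes. Summits of members were thus closer to a start than at other open genes in general, on the same side as elsewhere. This closeness was shared with the mitochondrial and biogenesis sets.

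**Figure D4:**
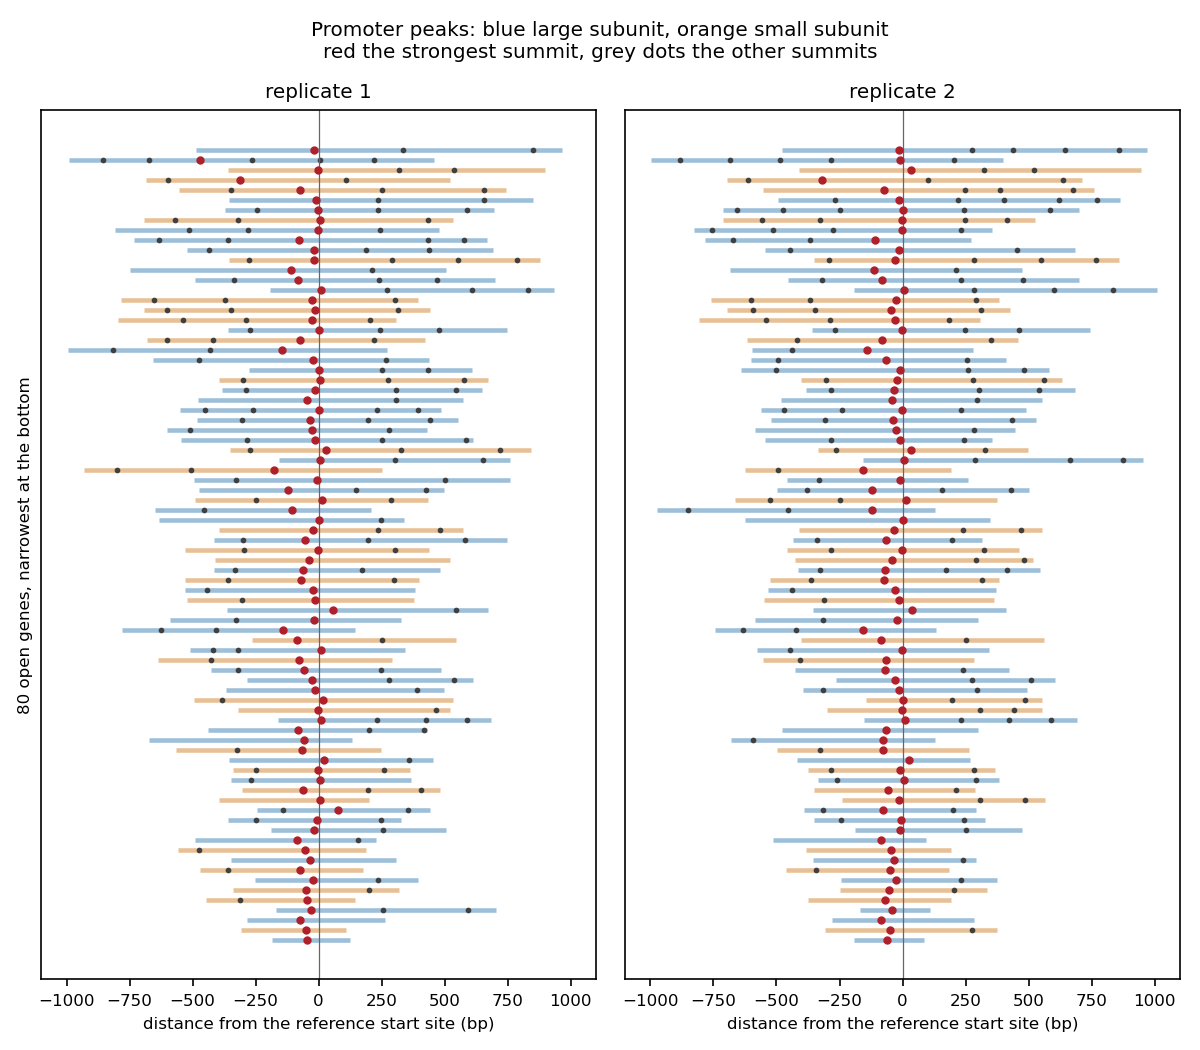
Promoter peaks of the 80 open members, 1 per row from the narrowest at the bottom to the widest at the top, by distance from the annotated start nearest to the strongest summit (x axis, bp, negative upstream). Bars are intervals (blue large, orange small subunit), red points the strongest summit and grey points the other summits, replicate 1 at the left and replicate 2 at the right. Most red points lie within 100 bp of the start, and Rps19 and, in replicate 1, Rpl4 lie farthest upstream.

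By the mean of the replicates, Rps19 was the member with its strongest summit farthest from a start. That summit lay 310 bp upstream in replicate 1, where Rpl4 had one farther away at 469 bp, and 321 bp upstream in replicate 2. Its enrichments at Rps19 were 9.62 and 9.49. A further summit of nearly the same height, 8.98 and 8.82, lay downstream of a start by 109 and 102 bp. The interval of 1204 and 1407 bp therefore held a pair of strong summits on either side of the first annotated start, in both replicates. At Rps21 the strongest summit lay 179 and 155 bp upstream.

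Rpl4 showed the largest move of a strongest summit between replicates, 478 bp. In replicate 1 the strongest summit lay 469 bp upstream of its start with an enrichment of 8.51, and a summit 7 bp downstream of a start had 8.23. In replicate 2 the summit 9 bp upstream of a start was the stronger, 9.42 against 8.71 at the upstream one. The interval also lies within 1 kb of a start of Zwilch. Both summits were thus called in both replicates and only their order differed.

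Rpl4 was 1 of 16 open members whose peak also lay within 1 kb of a start of another protein-coding gene. Further examples were Rpl12 with Lrsam1, Rpl15 with Nkiras1, Rpl18 with Sphk2, Rpl9 with Lias and Rps28 with Ndufa7. The neighbour of Rps10 is a readthrough transcript of Rps10 itself. This was 20% of members in each replicate, against 26.7% and 26.8% of the other open genes. More than 1 promoter peak was found at 6.25% and 8.75% of members and at 19.1% and 20.8% of the others. A peak at these 16 promoters cannot be assigned to either gene from the lists.

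At 5 members the peak lay at an internal annotated start more than 1 kb from the outermost 5′ end of the gene model. They were Rpl17, Rpl3, Rps10, Rps14 and Rps2. The strongest summit of Rps14 lay 27512 and 27513 bp inside its model, that of Rpl3 8464 and 8463 bp, and that of Rpl17 1921 and 1916 bp. Measured from the start it covers, each lay within 100 bp, at 14 and 15 bp downstream for Rps14 and 2 and 1 bp downstream for Rpl3. When only the outermost 5′ end was counted, 75 of the 90 members were open, against 38.4% of all protein-coding genes.

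Distal peaks were those shared by the replicates, within 50 kb of the outermost 5′ end and more than 1 kb from any annotated start of any gene. Peaks at the starts of neighbouring genes were thus not counted. Of the 80 open members 33 (41.3%) had no distal peak, against 53.2% of the other open genes. The median number was 1 for members and 0 for the others. Among the 16 Diamond-Blackfan genes 11 had none.

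The replicates ranked the members alike. Spearman's rho over the 80 genes was 0.94 for the percentile by enrichment, 0.91 for that by significance and 0.76 for width, as a description of 2 libraries with the same genes and no p. The strongest summit moved by a median of 5 bp and by at most 20 bp at 70 of 80 genes. The largest differences in percentile by enrichment were at Rps4x (59.8 and 80.3), Rpl24 (64.0 and 79.2) and Rps18 (57.6 and 72.2). All 3 were higher in replicate 2, and the cause was not tested.

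Initiator tracts, defined as a C at the annotated start followed by at least 4 further pyrimidines, were common at these genes. At least 1 annotated start had such a tract at 34 of 80 open members, 42.5% (95% Wilson interval 32.3 to 53.4%). The same held for 989 of 9003 other open protein-coding genes, 11.0% (10.4 to 11.6%). Counted by start rather than by gene, 46 of 470 annotated starts of members (9.79%) and 2.08% of the starts of other open genes had a tract. When only the outermost start of each gene was read, the shares fell to 8.75% and 2.2%, with the members still above the others. Tracts were 5 to 17 bases long, with a median of 7.5.

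Tracts were found in both subunits and in translation factor genes but seldom in mitochondrial ribosomal protein genes. They were present at 18 of 46 core large subunit genes (39.1%), 16 of 30 core small subunit genes (53.3%), 9 of 21 translation factor genes (42.9%) and 7 of 71 mitochondrial ribosomal protein genes (9.86%). The intervals of the 2 subunits, 26.4 to 53.5% and 36.1 to 69.8%, overlapped. The longest tract, 17 bases, was at a start of Rps24, and tracts of 15, 14 and 14 bases were at Rpl27a, Rpl32 and Rpl7.

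The open interval's strongest summit lay upstream of the tract. Of the 46 tract starts 45 lay downstream of the strongest summit in both replicates, with Rpl4 in replicate 2 as the exception. Within 1 kb of the summit this held for 44 of 45 tract starts of members (97.8%), for 89.6% of 337 starts of members without a tract, and for 78.5% of 581 tract starts of other open genes. The median place of the summit was 82 bp upstream of the tract start in replicate 1 and 75 bp in replicate 2. It was similar at starts without a tract, 89 and 94 bp upstream in members and 78 and 79 bp in other open genes. At tract starts of other open genes it was 82 bp upstream in each replicate, so this spacing was not particular to tracts or to members. In the promoters shown above the summit lay 65 and 63 bp upstream of the tract start at Rpl30, 70 and 66 bp at Rpl34, 65 and 66 bp at Rpl5, 30 and 27 bp at Rpl35a and 76 and 73 bp at Rps13. It lay 53 and 56 bp upstream at Rps27, 65 and 75 bp at Rps9 and 53 and 47 bp at Rps10. The 8 tract starts shown thus sat 27 to 76 bp downstream of the strongest summit.

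Motifs were sought on both strands in windows that reach 75 bp to each side of the strongest summit. The ETS core CCGGAAG lay in the windows of 31.3% of members in replicate 1 and 33.8% in replicate 2, with lower limits of 22.2% and 24.3%, against 18.1% and 18.2% of the other open genes. At the 24 genes with a match in both windows, the median place of a match was 18 bp upstream of the nearest start. Core small subunit genes had it in 40% in each replicate and core large subunit genes in 28.3% and 32.6%, with overlapping intervals. Mitochondrial ribosomal protein genes had a similar share, 29.6% and 32.4%. In the 300 bp windows from 250 bases before to 50 after the outermost 5′ end, 26.3% of open members (95% Wilson interval 17.9 to 36.8%), 20.7% of the other open genes and 10.8% of all protein-coding genes had a match. The share of the other open genes lay within the members' interval in these windows, unlike at the summits.

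The 10 letters of the ZBTB33 palindrome shown above lay in 8.75% of member windows in each replicate, 7 of 80, and in 1.06% and 1.11% of the others. Those with a match in both windows were Rpl10a, Rpl12, Rpl17, Rpl26, Rps28 and Rps6. Its centre lay 1.5 bp upstream of the nearest start at Rps6 and Rpl17 and 3.5 bp downstream at Rps28. At Rpl10a, Rpl26 and Rpl12 it lay 29.5, 38.5 and 57.5 bp upstream. Ranks by enrichment among the 6 ran from Rpl26 at 58.0 and 65.2 to Rps6 at 92.2 and 96.6, so carriers of the palindrome were not alike in strength. The counts are small, and the lower limit of the members' share was 4.3%. In the windows at the outermost 5′ end it was present at 6.25% of open members, 1.24% of the other open genes and 0.624% of all protein-coding genes.

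The AAGATGG letters of the YY1 motif lay in 11.3% of member windows in each replicate, with a lower limit of 6.03%, and in 5.45% and 5.26% of the others. Mitochondrial ribosomal protein genes had a similar share, 11.3% and 12.7%. TATAAA lay in 7.5% and 5% of member windows and in 1.36% and 1.42% of the others, with lower limits of 3.48% and 1.96% for members. Members with TATAAA in both windows, on either strand, were Rps28, Rpl36a, Rpl3 and Rps2. Rps28 had it centred 28.5 bp upstream of its nearest start, and Rpl36a and Rpl3 had it 5.5 and 25.5 bp downstream. Its place at Rps2 is not given here. In the windows at the outermost 5′ end TATAAA was present at 11.25% of open members, 6.78% of the other open genes and 12.6% of all protein-coding genes.

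Around the summit, 5 other motifs were not clearly more frequent at members than elsewhere. CCAAT, bound by NFY, lay in 23.8% of member windows in each replicate, with an upper limit of 34.1%, and in 35.3% and 35.4% of the others. GGGCGG, bound by SP and KLF factors, lay in 52.5% and 51.3% of member windows and in 58.9% and 58.6% of the others, within the members' intervals. AGATAA, which GATA factors bind, lay in 2 of 80 member windows (2.5%) and in 3.35% and 3.39% of the others. CACGTG, the E-box of MYC and its relatives, lay in 3 of 80 (3.75%) and in 7.43% and 7.29%. The palindrome of NRF1, a regulator of nuclear genes for mitochondria, lay in 1.25% and 2.5% and in 1.73% and 1.64%. The last 3 sets rest on at most 3 members each. In the windows at the outermost 5′ end the order turned for AGATAA (8.75% of members, 6.39% of the others) and for CACGTG (13.75% and 10.7%).

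**Figure D5:**
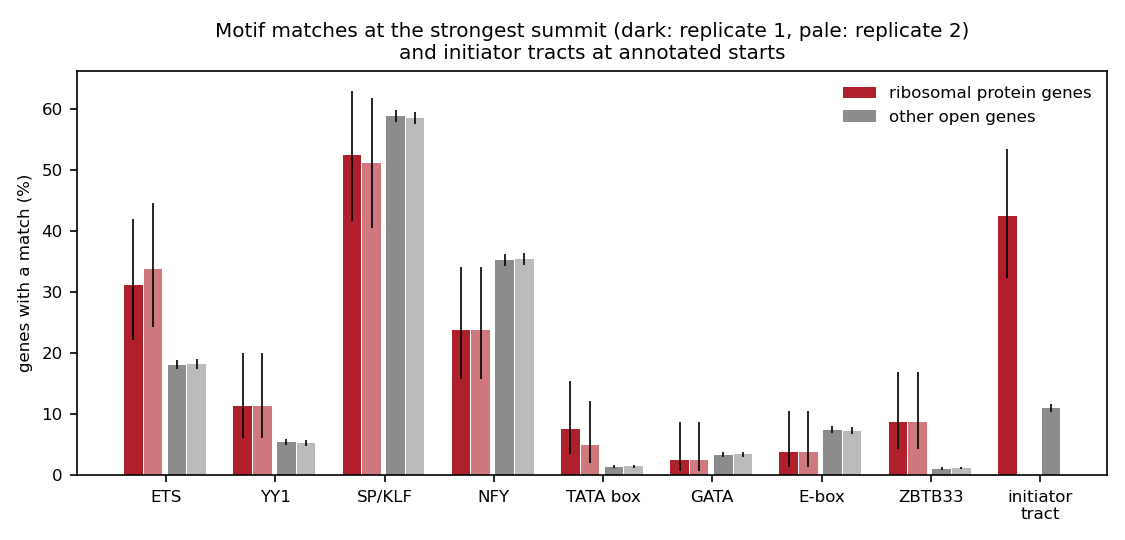
Share of genes (y axis, %) with a motif match within 75 bp of the strongest summit, for the 80 open members (red) and the 9003 other open protein-coding genes (grey), replicate 1 dark and replicate 2 pale, and at the right the share with an initiator tract at any annotated start. Lines are 95% Wilson intervals. ETS, YY1, ZBTB33, TATA box and initiator tract shares are higher in members, and the NFY share is lower.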

How the data were processed

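Deposited lists give 1 summit per line in narrowPeak layout. The enrichment, a fold (ratio) over background, and the significance, a −log10 p, were computed by the authors for each summit; per the labels the build is mm10. The peak caller, the aligner, the treatment of reads with several matches and any step that makes lists comparable are steps not given in the sources used here. Values were therefore ranked and described only within a list. The thresholded list (on the irreproducible discovery rate) of each replicate was the main one, and the less strict pseudoreplicated lists and the thresholded list made from both replicates were alternatives.

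Lines of the same interval were merged into a peak with its summits. Start sites and snoRNA genes came from GENCODE M21 and sequence from GRCm38.p6, within which all peaks of 21 chromosomes end. Mitochondrial ribosomal protein genes were those named Mrpl or Mrps followed by a digit. All 81 names of the other gene lists matched by symbol. The members and lists were chosen with earlier results of these data known.

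Named genes were every closed member, the 4 highest and 3 lowest of each subunit by mean percentile, the 3 with the widest peak, with most summits, with the farthest summit and with the largest difference between replicates, those open only at an internal start, Rplp0, Rps19, Rpl5, Rpl11 and Rps14, and Rpsa, Fau and Rack1. Some results are not reported here. Other names and the printed sequences were chosen after their values were seen. Shares have 95% Wilson intervals. The search for promoter peaks was checked on a single simulated list of peaks at genes far from each other. There 200 of 200 genes with a peak inside the promoter and 0 of 200 with a peak outside it were called open. This checked the reading of intervals only, not the rule that each replicate must have a peak, nor crowded promoters. Tools were Python 3.11.15, NumPy 2.4.6, SciPy 1.17.1, pysam 0.24.0, matplotlib 3.10.9 and samtools 1.23.1.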

Additional observations from a re-analysis of the deposited data

How the results depend on the processing

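The count of open members was 80 with promoters of 500 bp, with starts of protein-coding transcripts only, in the less strict lists, in the list made from both replicates and in either replicate alone, 75 at the outermost 5′ end and 76 without paralogs. The background was 40.6% with 500 bp, 38.4% at the 5′ end and 46.6% in the less strict lists. The median percentile by enrichment of 81.3 became 72.3 when ranked among promoter peaks only and 89.5 in the less strict lists, and that by significance of 84.6 became 74.98 and 91.3. The median distance of the summit, 29.5 bp, became 55.25 bp from the outermost 5′ end. The mean share of members with a motif changed with the window. In the larger summit windows it was 40% for CCGGAAG, 21.25% for AAGATGG, 64.4% for GGGCGG, 30% for CCAAT, 11.25% for TATAAA, 3.75% for AGATAA, 10% for CACGTG and 10% for the ZBTB33 palindrome. In the 5′ end windows it was 26.25%, 13.75%, 47.5%, 32.5%, 11.25%, 8.75%, 13.75% and 6.25% in the same order. The shares of the other open genes rose in the larger summit windows too. In replicate 1 they were 23.7%, 9.42%, 70.9%, 43.5%, 3.84%, 5.8%, 11.4% and 1.24% in the same order. In replicate 2 they were 24.0%, 9.21%, 70.9%, 43.5%, 3.57%, 5.6%, 11.2% and 1.34%. In those windows members stayed above the others for the ETS, YY1, TATA box and ZBTB33 motifs and below them for the rest. No paired analysis was possible because the study has 1 group. The other 57 alternatives moved their value by no more than the spread between replicates or, for counts, by less than 1.5 times. With no read counts, a closed promoter means only that no peak was listed, at a depth that is unknown.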

Other observations

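The genes of the factors whose motifs were sought had open promoters at 12 of 12. Zbtb33 stood at percentiles 94.0 and 94.4 by enrichment but at 54.6 and 55.0 by significance in replicates 1 and 2. Gabpa, which encodes the DNA-binding part of an ETS factor, stood at 78.9 and 82.9 by enrichment. Gata1 stood at 10.3 and 16.4 and Klf1 at 23.7 and 24.3. No expression or binding of these factors was measured.

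Rpl36al and Rps29 lie 23544 bp apart on chromosome 12 and each had its own peak. By enrichment Rpl36al stood at 83.8 and 80.2 and Rps29 at 80.2 and 66.2, and by significance at 91.4 and 88.7 and at 91.8 and 80.04. Rps29 was lower in replicate 2 by both measures.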
